A study of Mus musculus with 6 samples.

Results

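The genes described here are 38 genes of the type I interferon response, taken by their symbols from a deposited table of 24421 genes, in which all 38 were found. They were measured by RNA sequencing of polyadenylated RNA from brain-derived ECs (endothelial cells, which line blood vessels) of mouse, which had been kept in culture and were purified by fluorescence-activated sorting. A group of 3 libraries is labelled Fli-1 knockout and a group of 3 is labelled WT (wild-type), both sampled when the cells had spent 6 days alongside a vascular niche in co-culture. Fli1 encodes an ETS family transcription factor of endothelial and blood cells, and its deletion was induced with 4-OHT (4-hydroxytamoxifen, the ligand used to switch on tamoxifen-dependent recombinases). The labels do not give the strain, age or sex of the mice, the recombinase and its promoter, the deleted exons, or whether the wild-type cells also received 4-OHT. Nor do they say whether replicates were independent cultures or animals, so the p-values measure the spread between these libraries, which may be technical. The libraries of both groups carry the numbers 1, 2 and 3, and differences were read between groups and between libraries of the same number.

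Type I interferons are secreted proteins that cells make when sensors such as Ddx58 (RIG-I) and Ifih1 (MDA5) detect viral RNA. They bind a receptor built from Ifnar1 and Ifnar2, whose kinases activate a complex of STAT proteins with Irf9, and this complex switches on antiviral genes through a DNA motif called the interferon-stimulated response element (ISRE). Many cells transcribe some of these genes without infection, which is called tonic or basal interferon signalling.

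Total counts ranged from 17550185 to 21385951 per library, so that 1 read corresponded to 0.0475 to 0.0579 CPM (each gene's count relative to the scaled library total). Fli1 itself was at 76.8, 110.6 and 77.4 CPM in numbers 1 to 3 of the knockout label, above the 45.3, 59.6 and 45.8 CPM of the wild-type label. This is against the genotype labels for counts over the whole gene, so each direction below is that of the libraries as labelled. Endothelial markers were abundant, with 10 listed genes (Pecam1 and Cdh5 among them) summing to 13990 to 16550 CPM. Blood cell markers were scarce, with 14 genes summing to 3.66 to 4.28 CPM and Cd3e, Adgre1, Tyrobp, Siglech, Spi1 and Rac2 at 0 counts in all 6 libraries. The libraries numbered 2 stood apart in both groups. Their 10 fibroblast markers summed to 908.9 and 1273 CPM against 113 to 440 CPM in the other 4 libraries. Of the 9 tested mural markers, 6 were highest in number 2 of both groups, among them Pdgfrb, at 53.8 and 81.3 CPM against 10.2 to 15.9 CPM. Tagln, the most abundant mural marker, was lowest there, at 982.5 and 1014 CPM, and the mural sum of 1847 CPM in number 2 of the knockout label lay below the 1894 CPM of number 3. In bulk samples of this kind, fewer cells of a type and less RNA per cell cannot be told apart. Cell division genes also moved with the groups: the 10 listed genes summed to 245, 339 and 408 CPM under the knockout label, against 139, 181.5 and 219.8 CPM under the wild-type label.

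Promoters are shown first because the ISRE is the motif through which the receptor's signal reaches antiviral genes. RefSeq promoter windows on GRCm38.p6, from 250 bases before to 50 bases after each start, were matched for 29 of the 38 genes. Some genes had more than 1 window, and a gene was counted if any of its windows held a match. The ISRE core, GAAA followed by any 2 bases and GAAA again, was read on both strands. It occurred in 15 of these 29 genes (51.7%), against 3.99% of the 27025 genes with such windows. The letters TTCNNNGAA, a core that STAT dimers recognise, occurred in 12 of the 29 (41.4%) against 9.55% of all genes, and in Ifitm3 and Bst2 they overlapped an ISRE match. The ETS core CCGGAAGT, the kind of motif that Fli1 and its relatives recognise, occurred in Ifih1, Ifit2 and Ifnar1 (10.3%) against 4.31% of all genes. A match is a run of letters, not measured binding. The 250 bases before the start are printed for Oas1a (chr5:120907526-120907775, minus strand), the gene on which the paired comparison turns, and for Isg15 (chr4:156200819-156201068, minus strand), a standard readout of interferon signalling. Both are written 5′ to 3′ on the gene's strand with the ISRE letters in capitals.
Oas1a: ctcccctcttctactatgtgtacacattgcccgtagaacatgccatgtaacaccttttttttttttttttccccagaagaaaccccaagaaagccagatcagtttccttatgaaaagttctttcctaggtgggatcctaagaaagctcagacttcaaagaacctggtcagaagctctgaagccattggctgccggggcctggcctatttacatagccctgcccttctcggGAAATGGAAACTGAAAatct
Isg15: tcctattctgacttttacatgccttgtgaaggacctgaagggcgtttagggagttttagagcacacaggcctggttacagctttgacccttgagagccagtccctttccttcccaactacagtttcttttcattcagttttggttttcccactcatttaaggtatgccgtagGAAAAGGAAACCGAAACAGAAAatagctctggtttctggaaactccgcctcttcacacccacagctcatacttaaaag
In Oas1a the match ended 4 bases before the start, and in Isg15 it spanned 22 bases and ended 56 bases before the start.

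Shorter windows, on the gene's strand with ISRE letters in capitals, are printed for 3 scarce genes and 3 more abundant genes. The scarce genes are Ifit1, Rsad2 and Cxcl10, and the more abundant ones are Bst2, Ifitm3 and Eif2ak2. The windows lie at chr19:34640775-34640804 on the plus strand and, on the minus strand, at chr12:26456553-26456582, chr5:92349083-92349112, chr8:71537580-71537609, chr7:141010723-141010752 and chr17:78882535-78882564. A core on the opposite strand reads TTTC, any 2 bases and TTTC. Ifit1 and Ifitm3 each hold a second match, which begins at the end of the printed window and is left in lower case. In Ifitm3 the letters TTCNNNGAA overlap this second match, not the match in capitals.
Ifit1: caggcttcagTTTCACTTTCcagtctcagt
Rsad2: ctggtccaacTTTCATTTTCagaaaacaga
Cxcl10: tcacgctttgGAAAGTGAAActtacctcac
Bst2: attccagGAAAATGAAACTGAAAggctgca
Ifitm3: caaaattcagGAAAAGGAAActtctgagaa
Eif2ak2: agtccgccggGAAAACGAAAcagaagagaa
The 6 genes were chosen, with their values known, because they hold the core and differ in level. In Ifit1, Rsad2 and Cxcl10 number 3 was at least 1.5-fold number 2 in both groups. Bst2, Ifitm3 and Eif2ak2 did not reach that in both, but number 2 was also the lowest library of both groups for Bst2 and Eif2ak2.

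The basal levels, compared between genes as CPM per kilobase of annotated exon, fell into a small abundant set and a long tail. The most abundant were Bst2 (tetherin, which holds budding virions at the cell surface) at 272 ± 46.1, Ifitm3 at 252 ± 22.6, Ly6e (a lipid-anchored surface protein) at 249.2 ± 30.9 and Ifitm2 at 182 ± 17.5 CPM per kilobase (SD, n = 6). Ifitm2 and Ifitm3 are related membrane proteins that block the entry of enveloped viruses. Neighbours among these 4 overlapped in their libraries, and none of the 4 overlapped with any other gene of the list. The receptor subunits followed, Ifnar1 at 55.0 ± 3.57 and Ifnar2 at 39.25 ± 3.01 CPM per kilobase (SD, n = 6), without overlap with each other or with their neighbours in the order.

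The next genes in order were Ddx58, Irf3, Ifi35 and Trim25, between 16.8 and 19.8 CPM per kilobase on average. Trim25 is a ubiquitin ligase that acts on RIG-I, and Irf3 is the constitutive factor that starts interferon transcription. Irf1 stood alone at 11.9 ± 0.496 CPM per kilobase (SD, n = 6). A gradual series then ran from the RNA-editing enzyme Adar at 10.5 CPM per kilobase to Mx2 at 0.164 CPM per kilobase, and every neighbouring pair in it overlapped. It held the kinase Eif2ak2 (PKR), Parp9, Parp14, Isg15, Irf2, Irf9, Stat2, the dNTPase Samhd1, Rtp4, Ifih1, Xaf1, Oas1a, Usp18, Oasl2, Dhx58, Irf7, Ifit1, Ifit3, Rsad2, Ifi44, Ifit2 and Cxcl10, in that order.

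Several inducible genes were at or below a few CPM per kilobase, whereas the inducible Bst2, Ifitm3 and Ly6e led the order. Irf7, the inducible factor that amplifies interferon production, was at 1.55 ± 0.473, Ifit1, which binds viral RNA, at 1.07 ± 0.374, and Rsad2 (viperin) at 0.973 ± 0.288 CPM per kilobase (SD, n = 6). Mx1, a dynamin-like GTPase against influenza, had 3 reads in 1 library labelled knockout and 1 read in each of 2 libraries labelled wild-type. Oas2, a synthetase of the 2-5A messenger that activates RNase L, had 1, 1 and 0 reads against 0, 0 and 4. Its relative Oas3, the least abundant effector, had 0, 0 and 0 reads against 0, 0 and 1. These 3 genes were too scarce to test, and 3 reads amount to 0.143 to 0.174 CPM per library. Mx2, the scarcest tested gene per length, is annotated in GENCODE as a polymorphic pseudogene. The order of genes on this scale depends on the annotated length, which counts every annotated exon of a gene, 3784 bases in Ly6e and 678 in Ifitm3.

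**Figure D1:**
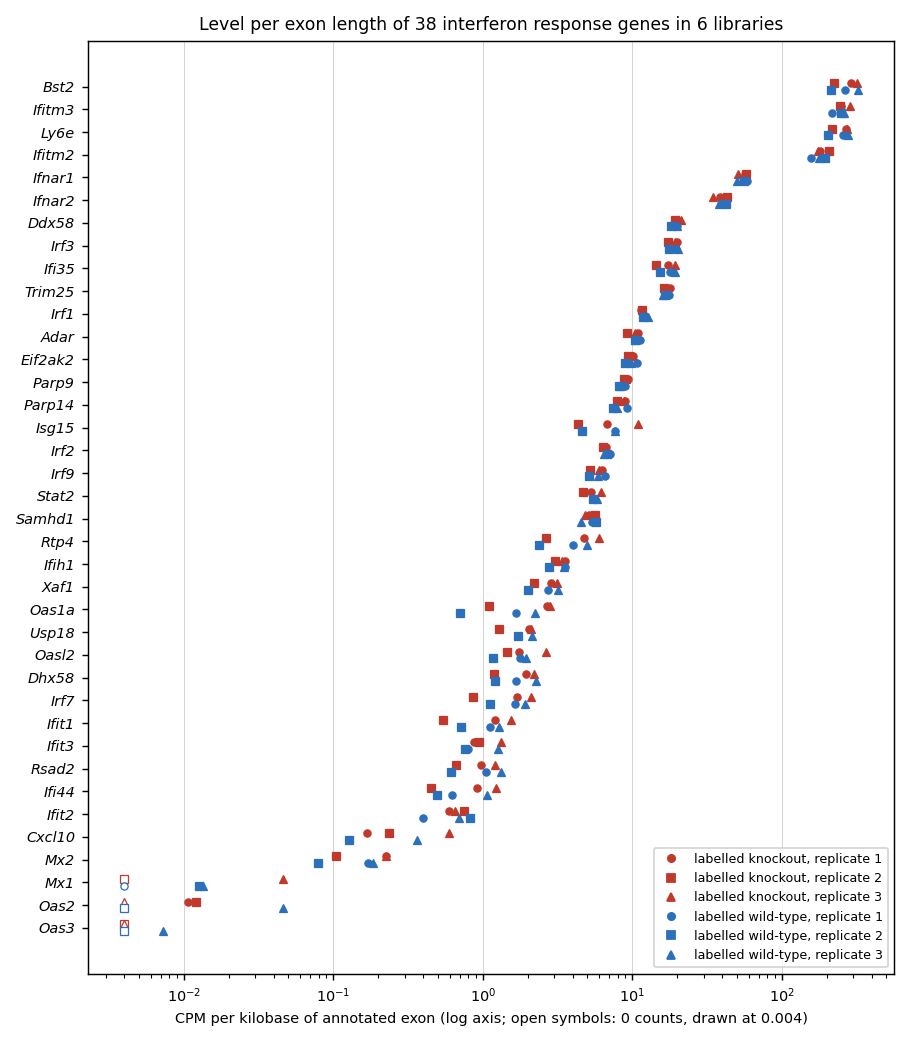
Level of each of the 38 genes in CPM per kilobase of exon (log axis), with 1 symbol per library, by group and ordered by mean; open symbols are libraries with 0 counts, drawn at a fixed low position. Bst2, Ifitm3, Ly6e and Ifitm2 stand above the rest, and Mx1, Oas2 and Oas3 sit at the floor.

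Between the groups, none of the 35 tested genes was called when the replicate number was left out of the model. Without the replicate number in the model, edgeR's quasi-likelihood test with Benjamini-Hochberg adjustment over 12753 genes called 0 of the 35 higher and 0 lower (0% and 0.00784% of all genes tested), and 0 of the 35 had an unadjusted p under 0.05 (4.79% of all genes). DESeq2 and limma-voom also called 0 of them. The median log2 fold change of the 35 genes was 0.054, and in none of them were the groups free of overlap (5.25% of all genes higher and 4.96% lower without overlap). This fit gave 22 of the 35 genes (62.9%) a 95% interval within 1.5-fold, against 71.6% of all genes, so for the other 13 a change of that size could not be bounded.

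With the replicate number as a block, 1 of the 35 genes (2.86%) was called, Oas1a, which was higher in the libraries labelled knockout. The same fit called 4.81% of all genes higher and 4.01% lower, and an unadjusted p under 0.05 was reached by 4 of the 35 (Oas1a, Oasl2, Ifitm3 and Rtp4, all with positive differences), against 20.8% of all genes. The called share, 2.86%, lay below the share of all genes called higher. The median log2 fold change was 0.056, with 23 of 35 values above 0 (65.7%), beside a median of -0.0033 and 48.9% above 0 over all genes. The interval lay within 1.5-fold for 31 of the 35 genes (88.6%, against 82.2% of all genes). The 4 genes outside 1.5-fold were Ifit3, Mx2, Oas1a and Cxcl10, all of them among the 13 tested interferon genes under 10 CPM. Over all genes under 10 CPM the share within 1.5-fold was 44.9%. All 3 pairs had the higher value in the library labelled knockout for 7 genes (20%, against 20.6% of all genes) and the lower value for 2 genes, Irf1 and Adar (5.71%, against 20.1%).

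**Figure D2:**
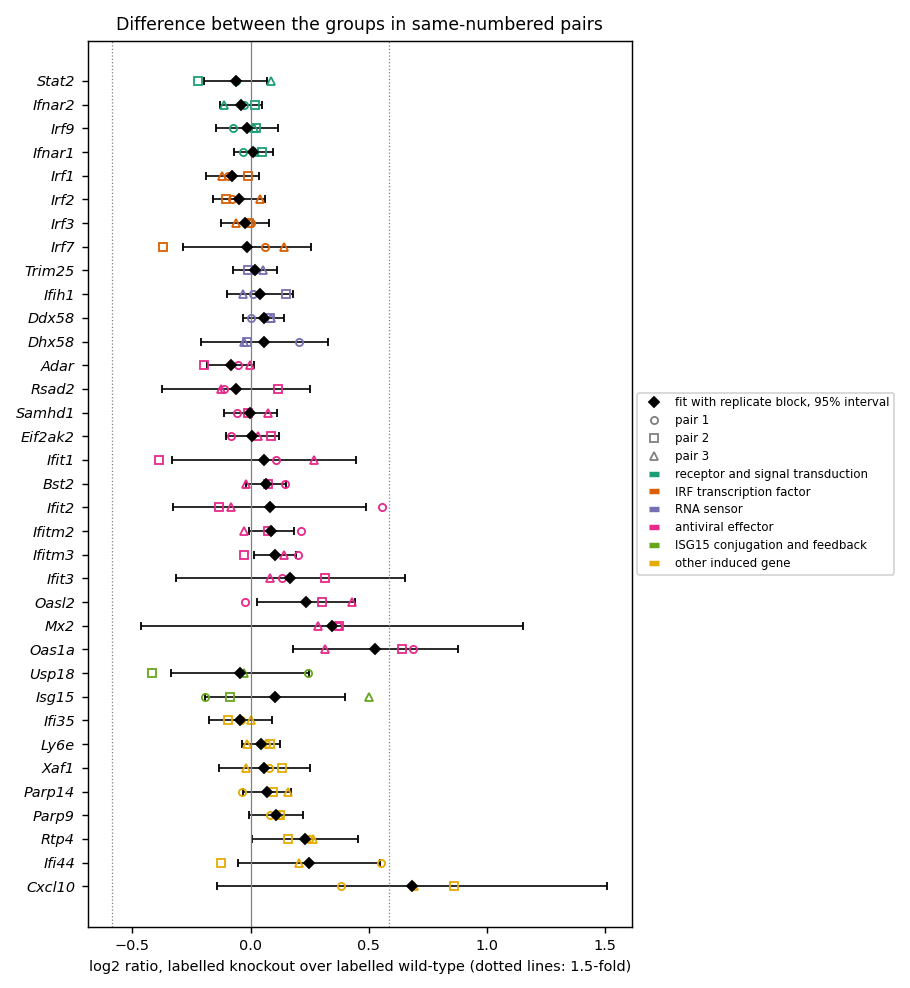
Log2 ratio of the library labelled knockout to the one labelled wild-type for each same-numbered pair (points) and the blocked estimate with its 95% interval (diamonds and bars) for the 35 tested genes, with dotted lines at 1.5-fold. Most intervals lie between the dotted lines, and those of Ifit3, Mx2, Oas1a and Cxcl10 extend past them.

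The receptor subunits, Stat2 and Irf9 showed no difference past the threshold, and their intervals were narrow. Ifnar1 was at 338, 344 and 302 CPM in numbers 1 to 3 of the knockout label, against 345, 333 and 298 CPM for the wild-type label, the order used for all values below. The groups overlapped, and the blocked log2 difference was 0.012 ± 0.041 (SE; 95% interval -0.070 to 0.095; adjusted p = 0.910 by edgeR). Ifnar2 was at 128, 143 and 116 CPM against 130.3, 141 and 126 CPM, overlapping, with a blocked difference of -0.039 ± 0.044 (SE; interval -0.13 to 0.050). Stat2, which brings an activation domain to the complex with Irf9, was at 31.6, 27.9 and 36.6 CPM against 33.0, 32.6 and 34.4 CPM. Its blocked difference was -0.063 ± 0.066 (SE; interval -0.20 to 0.070), with number 3 above number 2 in both groups. Irf9, the DNA-binding subunit, was at 33.9, 28.3 and 32.2 CPM against 35.7, 27.8 and 31.8 CPM, with a blocked difference of -0.014 ± 0.064 (SE; interval -0.14 to 0.12). For both genes the groups overlapped. The median of the blocked differences of these 4 genes was -0.027.

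Among the interferon regulatory factors, Irf3 was the most abundant per length and Irf7 the least. Irf3 was at 68.05, 60.1 and 66.7 CPM against 67.9, 60.4 and 69.6 CPM, with overlapping groups and a blocked log2 difference of -0.021 ± 0.050 (SE; interval -0.12 to 0.080). Irf7 was at 6.42, 3.26 and 7.94 CPM against 6.16, 4.23 and 7.19 CPM. Its lowest library was number 2 and its highest number 3 in both groups, the groups overlapped, and the blocked difference was -0.015 ± 0.135 (SE; interval -0.29 to 0.26). Irf1 and Irf2, which act on overlapping sites as activator and mostly as repressor, ranged from 45.3 to 50.9 and from 46.9 to 52.3 CPM.

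Of the RNA sensors and their partner Trim25, Ddx58 was at 141, 136 and 149 CPM against 141, 129 and 140.3 CPM. Its groups overlapped and its blocked log2 difference was 0.056 ± 0.043 (SE; interval -0.031 to 0.14). Dhx58 (LGP2, a regulator of the other sensors) was at 6.33, 3.90 and 7.24 CPM against 5.49, 3.94 and 7.40 CPM, overlapping, with a difference of 0.059 ± 0.13 (SE; interval -0.21 to 0.33). Ifih1 lay between 22.5 and 29.1 CPM and Trim25 between 92.1 and 103 CPM in the 6 libraries.

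Isg15 encodes a ubiquitin-like modifier, and Usp18 the protease that removes it and also dampens the receptor. Isg15 was at 5.09, 3.26 and 8.23 CPM against 5.82, 3.47 and 5.82 CPM. The pairs differed in direction, at -0.193, -0.087 and 0.50 on the log2 scale, and the blocked difference was 0.10 ± 0.15 (SE; interval -0.19 to 0.40). Usp18 was at 5.66, 3.58 and 5.85 CPM against 4.77, 4.80 and 5.97 CPM, with a blocked difference of -0.045 ± 0.14 (SE; interval -0.34 to 0.25). The groups overlapped for both.

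Among the 16 antiviral effectors, 13 were tested, with a median blocked difference of 0.081. Bst2, the most abundant, was at 263, 203.5 and 287 CPM against 238, 193.5 and 291 CPM. The groups overlapped, number 2 was lowest in both, and the blocked log2 difference was 0.066 ± 0.042 (SE; interval -0.019 to 0.15; adjusted p = 0.398 by edgeR). Ifitm3 lay between 148 and 195 CPM, with 0.10 ± 0.044 (SE; adjusted p = 0.152 by edgeR). Adar, at 74.5 to 91.8 CPM, had the most negative blocked difference of the 35 genes, -0.084 (adjusted p = 0.342 by edgeR).

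Oas1a, a 2-5A synthetase at chr5:120896256-120907521 on GRCm38, had 107, 39 and 91 reads under the knockout label, against 66, 28 and 83 reads under the wild-type label. In CPM these were 5.09, 2.085 and 5.27 against 3.15, 1.33 and 4.23, or 4.15 ± 1.79 against 2.905 ± 1.47 (SD, n = 3 each). The groups overlapped, because number 2 was the lowest library of both, while each pair was higher in the library labelled knockout, by 0.688, 0.641 and 0.316 on the log2 scale. Without the block the log2 difference was 0.52 ± 0.51 (SE; adjusted p = 0.996 by edgeR), and with it 0.53 ± 0.17 (SE; interval 0.18 to 0.88; adjusted p = 0.0473 by edgeR). The call ended under DESeq2 with the block (adjusted p = 0.565), with scaling by library size alone (0.0611 by edgeR), without pair 1 (0.318 by edgeR) and without pair 2 (0.139 by edgeR). Without pair 1 another gene was called in its place, Oasl2, a relative of the synthetases, at 0.37 on the log2 scale (adjusted p = 0.0381 by edgeR).

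Reads of Oas1a are also hard to assign. Of its 50-base windows, 57.6% occur in transcripts of other genes, among them the neighbouring copies Oas1b and Oas1g. Oas1b was at 4.045, 2.73 and 2.90 CPM against 4.77, 2.565 and 3.47 CPM, with a blocked log2 difference of -0.15 ± 0.17 (SE; adjusted p = 0.680 by edgeR). Oas1g had 2 reads in each group. The 3 genes summed to 9.185, 4.81 and 8.23 CPM against 8.02, 3.895 and 7.70 CPM, or 7.41 ± 2.30 against 6.54 ± 2.29 CPM (SD, n = 3 each). The sums of the groups overlapped, and in all 3 pairs the sum was higher under the knockout label, a difference that was not tested. Ifit3 and Ifitm2 share 51.2% and 48.5% of such windows with other genes, so their levels are uncertain as well. Exons of 10 of the 38 genes overlap those of a gene on the opposite strand and exons of 5 those of a gene on the same strand. Whether the counting used strand is not given in the sources used here.

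The remaining 8 genes are induced by interferon and have diverse or little-known roles, and their median blocked difference was 0.089. Ly6e, the most abundant, was at 1014, 819.9 and 1034 CPM against 969, 774 and 1046 CPM. Number 2 was lowest in both groups, the groups overlapped, and the blocked log2 difference was 0.044 ± 0.040 (SE; interval -0.038 to 0.13). Cxcl10, a chemokine that attracts T cells and the least abundant of the 8, was at 0.381, 0.535 and 1.33 CPM against 0.286, 0.285 and 0.816 CPM. The groups overlapped, number 3 was highest in both, and the blocked difference of 0.68 ± 0.41 (SE; interval -0.14 to 1.51; adjusted p = 0.356 by edgeR) was not bounded within 1.5-fold. Rtp4, a chaperone of membrane receptors, lay between 5.08 and 12.8 CPM and Parp9, a mono-ADP-ribosyltransferase partner of Dtx3l, between 39.5 and 45.7 CPM.

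The levels also followed the replicate number. Number 2 was the lowest library in both groups for 22 of the 35 tested genes (62.9%, against 22.2% of all genes), and number 3 was the highest in both for 19 (54.3%, against 19.3%). By level, number 2 was lowest in both for 9 of the 13 interferon genes under 10 CPM, against 18% of all genes at that level. The same held for 13 of the 22 interferon genes of 10 CPM or more, beside 22.2% of genes at all levels. The opposite order, number 2 highest in both, held for 4 genes, Ifnar2, Ifit2, Ifitm2 and Samhd1 (11.4%, against 22.6%). These counts are descriptions, and the genes named for them were chosen after their values were seen.

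**Figure D3:**
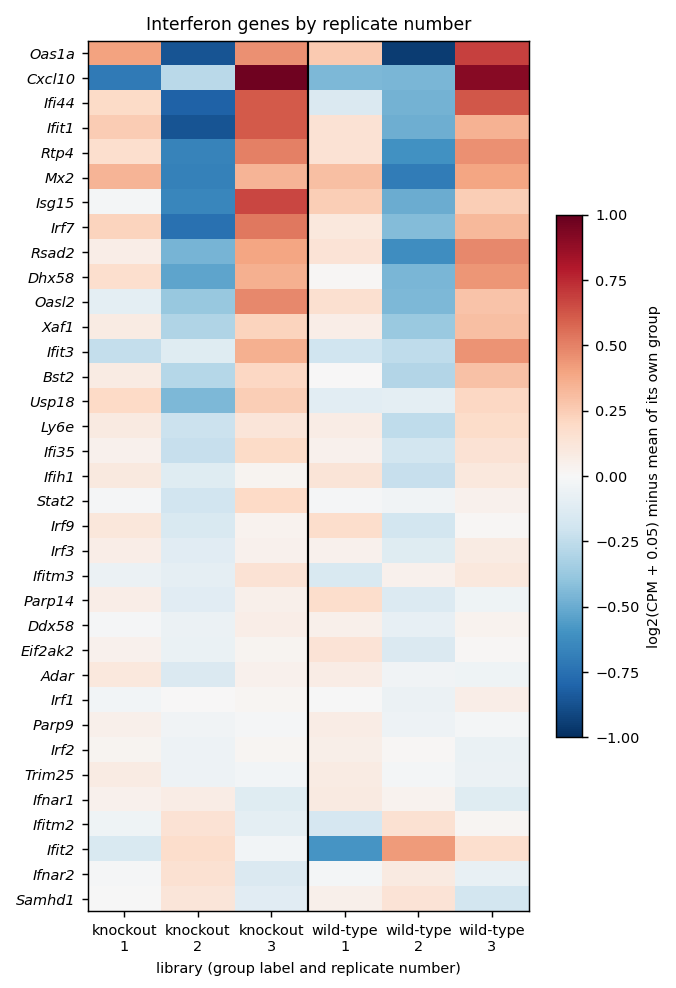
Deviation of each library from the mean of its own group, as log2(CPM + 0.05), for the 35 tested genes (rows, ordered by the ratio of number 3 to number 2) in the 6 libraries (columns). Number 2 is the lowest library of both groups in 22 rows and the highest of both in 4, among them Ifit2.

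The level in number 3 was at least 1.5-fold that in number 2 in both groups for 11 genes (31.4%, against 2.88% of all genes), namely Irf7, Ifit1, Dhx58, Isg15, Rsad2, Mx2, Oas1a, Oasl2, Ifi44, Cxcl10 and Rtp4. Of these, 10 were among the 13 tested genes under 10 CPM, and the share among all genes under 10 CPM was 6.4%. In those 13 interferon genes the median log2 ratio of number 3 to number 2 was 1.04 (range -0.228 to 1.49). In the 22 interferon genes of 10 CPM or more it was 0.127 (range -0.279 to 0.8). By role, the median log2 ratio was 0.008 in the receptor and signal genes (range -0.232 to 0.233), 0.122 in the interferon regulatory factors (-0.0038 to 1.02) and 0.183 in the sensors (-0.012 to 0.896). It was 0.543 in the effectors (-0.279 to 1.49), 0.493 in the other induced genes (0.0295 to 1.36), and Isg15 and Usp18 were at 1.04 and 0.509. The ranges of the roles overlapped, apart from those of the receptor genes and the pair of Isg15 and Usp18, and differences between roles were not tested. Averaged over the groups, the fold of number 3 over number 2 was 2.81 for Oas1a, 2.57 for Cxcl10, 2.40 for Ifi44, 2.25 for Ifit1 and 2.03 for Irf7. It was 1.46 for Bst2, 1.30 for Ly6e and 0.887 for Ifnar1.

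**Figure D4:**
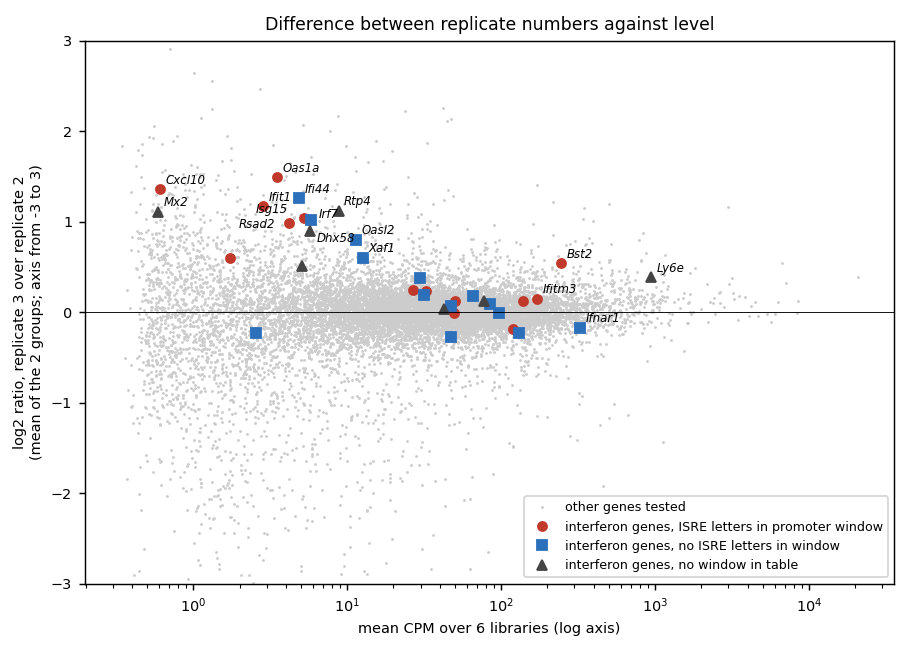
Log2 ratio of number 3 to number 2, averaged over the groups (vertical axis), against the mean level in CPM (horizontal log axis) for all genes tested (grey), with the 35 interferon genes coloured by whether ISRE letters were in their promoter window; 60 genes lie outside the vertical axis. The interferon genes under 10 CPM lie mostly well above 0, with a median of 1.04. Those of 10 CPM or more range from -0.279 to 0.8, with a median of 0.127.

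Other measures moved with the replicate number too. Over all genes the median log2 ratio of number 3 to number 2 was -0.0013, over the 10 endothelial markers 0.106, over the 7 tested fibroblast markers -1.41 and over the 9 tested mural markers -2.6. The summed cell division genes were lowest in number 1, not number 2, in both groups. The part that the stromal transcripts had in the interferon genes' order was not tested. Without pair 2, the blocked fit called 0 of the tested interferon genes in either direction. By promoter, the 14 tested genes with an ISRE match had a median log2 ratio of 0.392 (range -0.189 to 1.49) and the 14 with a window but no match 0.134 (range -0.279 to 1.26), and the ranges overlapped widely.

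The rest of the pathway was read from a list of 30 other genes, of which 24 were tested. Reads of the ligand genes on this list were nearly missing. Ifnb1 had 3 reads in all under the knockout label and 1 under the wild-type label. Ifna4 had 2 and 0, and Ifna2, Ifnk and Ifng had 0 in all 6. Other interferon ligand genes were not on the list. Without the block 0 of the 24 were called, and with it 1 rose and 1 fell (4.81% and 4.01% of all genes). Ifngr1, the ligand-binding chain of the receptor for interferon gamma, was at 149.7, 150.2 and 132 CPM against 132, 131 and 126 CPM, a blocked log2 difference of 0.15 ± 0.044 (SE; adjusted p = 0.0243 by edgeR). The lowest library labelled knockout lay level with the highest labelled wild-type. Socs3, a feedback inhibitor of cytokine receptors, was at 27.4, 28.9 and 30.8 CPM against 31.4, 35.1 and 39.6 CPM, without overlap, a blocked difference of -0.28 ± 0.065 (SE; adjusted p = 0.00257 by edgeR). Under DESeq2 with the block neither passed (adjusted p = 0.236 and 0.132). Of the 24 genes, 2 were lower without overlap, Socs3 and Socs1 (8.33%, against 4.96% of all genes), and 0 were higher (against 5.25%). Socs1 had 8, 7 and 5 reads against 11, 19 and 12, a blocked log2 difference of -0.94 ± 0.44 (SE; adjusted p = 0.2115 by edgeR). Jak1, a kinase bound to the receptor, was at 335, 374 and 335 CPM against 327, 371 and 328 CPM, a blocked difference of 0.026 (adjusted p = 0.783 by edgeR), and it was highest in number 2 of both groups.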

How the data were processed

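Reads were trimmed with Trim Galore 0.6.4, aligned with STAR 2.6.1d and counted per gene with featureCounts of Subread 1.6.4, with mm10 and GRCm38 named as builds, per the submitters' processing notes. The labels name an unstranded and a stranded library kit without saying which library had which, and the treatment of strand and of reads with several positions is not given in the sources used here. The deposited table holds raw counts per gene for 6 libraries.

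Counts were scaled by TMM, genes with low counts were left out with filterByExpr, and 12753 genes were tested with edgeR 4.0.16 (quasi-likelihood, robust) in R 4.3.3, with Benjamini-Hochberg adjustment over all of them and a threshold of 0.05. The groups were compared without a block and, in the second fit, with the replicate number as a block. After removal of group means, same-numbered libraries had correlations of 0.76, 0.845 and 0.636 across genes and others of -0.661 to 0.0256. Deviations cancel within a group after this step, so the low correlations of the others follow in part from the high ones. Libraries were treated as paired by number. The pairing comes from the titles' numbers and this check, since the labels do not say what a number marks. An exact test of 3 against 3 libraries cannot go below 0.1, nor one of 3 pairs below 0.25. The ratio within a pair was taken as log2 of counts scaled to CPM with a prior count of 0.5. DESeq2 1.42.0, limma 3.58.1 (voom), other scalings, no filter and leaving out each library or pair were tried. The edgeR fit was tested on simulated data.

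Exon lengths are unions over GENCODE M21 (GRCm38). The 38 genes and the other lists were chosen with earlier results of these data known. Values in every library are given for genes called with or without the block, for the receptor subunits, Stat2 and Irf9, and for the most and the least abundant gene per length of each role. From the 2 lists of related genes, those called with the block and the most abundant 2 per list are named. Socs1, the ligands and a few other genes are named outside this rule.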

Additional observations from a re-analysis of the deposited data

How the results depend on the processing

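Over all genes tested, 0 were called higher and 1 lower without the block. The replicate block gave 613 and 511, DESeq2 without the block 12 and 7, and limma-voom 0 lower, and leaving out each library gave 0 to 1 lower. With the replicate block DESeq2 gave 262 higher and 111 lower, and leaving out each pair gave 339 to 603 higher and 205 to 600 lower, the lowest of both without pair 2. Scaling by library size alone, with the block, gave 471 and 734, so 39.1% of calls were higher in place of 54.5%. Of the interferon genes, the replicate block called 1 higher, DESeq2 or library size alone with the block 0, and leaving out each pair 0 to 1. That gene was Oas1a without pair 3 and Oasl2 without pair 1, and none was called without pair 2. Their median log2 difference was 0.028 with library size alone (0.0297 with the block), -0.0479 to 0.127 when each library was left out, and, with the block, 0.0179 to 0.0558 when each pair was (0.0273 without pair 1). Oas1a, called in the blocked fit, gave 0.544 with DESeq2, 0.503 with library size alone, 0.423 without pair 1 and 0.498 without pair 2, each past no threshold. The cause of these shifts was not tested.

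Some differences turned direction, none of them called in either direction in those fits. Most were near 0 without the block, but those of Cxcl10 (0.681), Lgals3bp (0.22) and Isg15 (0.132) were larger. With library size alone the genes that turned were Ifnar1 (-0.0141 with and without the block), Irf7 (-0.0244), Jak1 (-0.000859, and -0.000252 with the block) and Ifi27 (-0.00225). Irf7 also turned with the replicate block (-0.0147) and limma-voom (-0.0525). Leaving out each library without the block gave ranges across 0 for Ifnar1 (-0.0464 to 0.0683), Ifnar2 (-0.116 to 0.0329), Stat2 (-0.163 to 0.0323), Irf9 (-0.106 to 0.0763), Bst2 (-0.0775 to 0.221), Ly6e (-0.0795 to 0.139), Cxcl10 (-0.012 to 1.36), Dhx58 (-0.149 to 0.305), Irf3 (-0.086 to 0.031), Irf7 (-0.271 to 0.293), Isg15 (-0.267 to 0.4), Usp18 (-0.162 to 0.153), Jak1 (-0.0289 to 0.0843), Lgals3bp (-0.00303 to 0.459) and Ifi27 (-0.111 to 0.208). Leaving out each pair with the block did so for Ifnar1 (-0.00881 to 0.0328), Stat2 (-0.14 to 0.0105), Irf9 (-0.0337 to 0.017), Dhx58 (-0.0257 to 0.114), Irf7 (-0.109 to 0.1), Isg15 (-0.151 to 0.27), Usp18 (-0.207 to 0.107) and Ifi27 (-0.00101 to 0.0823). Ifngr1, Dtx3l and Slfn2 lost their blocked call with library size alone and without pair 2. Ifngr1 also lost it without pair 1, Dtx3l and Slfn2 without pair 3, and Pml without pair 1 or pair 2. The count of interferon genes lowest in number 2, 22, was 20 to 22 under the other scalings, an alternative chosen after seeing the data. Genes of a few reads, such as Mx1, Oas2 and Oas3, cannot show a difference at this depth.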

Other observations

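Of 52 further interferon-stimulated genes, 46 were tested, and their median blocked log2 difference was 0.04. Without the block edgeR called 0 of them, and with it 3 rose and 1 fell in the libraries labelled knockout (4.81% and 4.01% of all genes). Lgals3bp, a secreted glycoprotein that binds galectins, was at 106, 61.7 and 122 CPM against 86.2, 55.7 and 107 CPM, a blocked log2 difference of 0.22 ± 0.048 (SE; adjusted p = 0.00173 by edgeR). The groups overlapped, number 2 was lowest in both, and each pair was higher in the library labelled knockout. Dtx3l, a ubiquitin ligase that partners Parp9, was at 48.5, 53.1 and 42.8 CPM against 46.1, 43.9 and 36.9 CPM, a difference of 0.19 ± 0.057 (SE; adjusted p = 0.0308 by edgeR). Slfn2, a Schlafen family gene, was at 16.2, 15.1 and 21.6 CPM against 16.4, 10.02 and 17.1 CPM, a difference of 0.29 ± 0.094 (SE; adjusted p = 0.04997 by edgeR). Pml, the scaffold of nuclear bodies, was at 70.2, 71.8 and 82.0 CPM against 80.4, 81.7 and 87.4 CPM, a difference of -0.16 ± 0.049 (SE; adjusted p = 0.0314 by edgeR). The groups overlapped in all 4 genes. Under DESeq2 with the block none of the 4 passed (adjusted p = 0.0549 for Lgals3bp, 0.414 for Dtx3l, 0.499 for Slfn2 and 0.349 for Pml).

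The most abundant gene of that list per length was Ifi27, a mitochondrial protein gene induced by interferon, at 51.3 CPM per kilobase, followed by Lgals3bp at 31.5. Ifi27 was at 74.3, 64.8 and 88.7 CPM against 71.0, 60.6 and 92.6 CPM, with a blocked log2 difference of 0.032 (adjusted p = 0.790 by edgeR). Its groups overlapped, and number 2 was lowest and number 3 highest in both. In this list number 2 was lowest in both groups for 28 of 46 genes (60.9%, against 22.2% of all genes), and 4 reached 1.5-fold between numbers 3 and 2 in both groups (2.88% of all genes). The chemokine genes Cxcl9 and Cxcl11 had 1 read each under the knockout label, and 2 and 0 under the wild-type label.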
